A study of Mus musculus with 67 samples.

Results

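The genes described here are 34 genes of purine and pyrimidine nucleotide synthesis, salvage and deoxynucleotide supply, chosen by name and function, with earlier results of these data known. They were taken from 35612 genes in the deposited tables. Of these, 35405 were listed for B and T cells alike, and all 34 members were among them. RNA was sequenced from B cells and from CD4+ T cells of C57BL/6 mice, enriched by negative selection from spleen, inguinal and brachial lymph nodes. The labels and the methods name no transgene or deleted allele in these mice. The labels give no age, and the study's general methods give 8 to 12 weeks and both sexes. Mice were naive or had been immunised with MOG, a myelin protein, which induces experimental autoimmune encephalomyelitis (EAE), in which T cells attack the myelin of brain and spinal cord. Each of the 4 sets of cells (B cells and T cells, each naive and EAE) held 5 arms of 3 libraries, which makes 20 groups and 60 libraries. An arm was left unstimulated or was cultured for 18 h with latex beads. For T cells the beads bore anti-CD3, and for B cells anti-IgM/IgG, to engage the antigen receptor. Beside it the beads bore either control Ig (CtrlIg) or anti-Btla, and each of these was given without or with soluble IFNb, a type I interferon. Lymphocytes carry Btla as an inhibitory receptor, and the antibody used, clone 6A6, blocks the binding of its ligand Hvem and also triggers its inhibitory signal.

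Purine synthesis builds the ring on ribose phosphate, step by step, until inosine monophosphate (IMP) is made, and IMP is then turned into AMP or GMP. Pyrimidine synthesis makes the ring first and joins it to the ribose phosphate afterwards, giving UMP and then CTP. Salvage enzymes return free bases and nucleosides to the pool, and ribonucleotide reductase with its partners makes the deoxynucleotides for DNA. Resting lymphocytes get by largely on salvage, and lymphocytes that are activated to grow and divide depend on synthesis, which is why drugs against Impdh2, Dhodh, thymidylate synthase or folate metabolism restrain lymphocytes.

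Levels are given as CPM, the counts of a gene with every library scaled to the same total, in the order of replicates 1, 2 and 3. Differences are log2 fold changes ± standard error (SE) after TMM scaling, with 3 libraries in each group. A gene was called higher or lower where its edgeR quasi-likelihood test had a Benjamini-Hochberg adjusted p below 0.05 over all genes tested. Activation means CtrlIg against unstimulated, and the anti-Btla effect means anti-Btla against CtrlIg. The labels of the unstimulated arm name no beads or control Ig, and no culture time is given for it. Receptor antibody, beads, control Ig and culture therefore cannot be told apart in what is called activation. Both comparisons rest on the same CtrlIg libraries, so an error in these moves the effects in opposite directions, and no overlap between the 2 comparisons was computed.

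Libraries held 6.7 to 62.0 M counts in B cells and 7.3 to 34 M in T cells. The 6 B cell markers summed to 3532 to 6585 CPM in B cells and 7.57 to 181 CPM in T cells, and the 6 T cell markers to 1782 to 2778 CPM in T cells and 4.06 to 8.65 CPM in B cells. Cd8a and Cd8b1, which mark CD8+ T cells, summed to 500.6 to 1096 CPM in naive T cells and 13.2 to 26.2 CPM in EAE T cells, so the naive libraries labelled CD4+ also held CD8+ RNA. The summed level of 8 interferon-induced genes was 63.9 to 134 CPM in replicate 1 of every B cell arm and 17.6 to 51.6 CPM in replicates 2 and 3. These 8 genes (Ifit1, Ifit3, Isg15, Mx1, Oasl2, Rsad2, Irf7 and Rtp4) were chosen after values were seen. In bulk RNA such as this, fewer cells of a type and less RNA per cell cannot be told apart. The labels number the libraries of a group 1 to 3, so the p-values reflect only the spread among these libraries, which may be technical.

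Members with the E-box number 5. They carry the word CACGTG, the core sequence bound by Myc and related factors, in the window from 250 bases before to 50 bases after a RefSeq start of the gene. The stretches of all 5 genes are shown, and the genes belong to 4 different roles. In both sets of B cells activation called these 5 higher, and anti-Btla called them lower. Of the 34 members, 27 were called higher on activation and 26 lower with anti-Btla in each set. Over all genes tested, 22.7% and 21% were called higher on activation in naive and EAE B cells. With anti-Btla 19.7% and 16.5% were called lower. Both comparisons use the same CtrlIg libraries, so the 2 calls of a gene are not independent. Each is 60 bases long, from GRCm38.p6, written 5′ to 3′ on the strand of the gene, with the E-box in capitals. They lie at chr5:76951072-76951131 (+) for Paics, chr1:71557096-71557155 (+) for Atic, chr9:108560296-108560355 (+) for Impdh2, chr11:93968273-93968332 (-) for Nme1 and chr5:30073656-30073715 (-) for Tyms.
Paics: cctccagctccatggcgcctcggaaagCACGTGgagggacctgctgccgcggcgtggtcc
Atic: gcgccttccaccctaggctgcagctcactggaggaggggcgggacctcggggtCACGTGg
Impdh2: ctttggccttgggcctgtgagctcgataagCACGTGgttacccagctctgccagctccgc
Nme1: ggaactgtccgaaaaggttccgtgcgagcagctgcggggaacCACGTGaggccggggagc
Tyms: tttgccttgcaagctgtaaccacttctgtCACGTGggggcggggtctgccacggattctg
Windows were found for 32 of the 34 members. The exceptions were Pfas and Dhodh. The E-box, which reads the same on both strands, was in the windows of 5 of these 32 members (15.6%) and of 8.09% of 27025 genes. An E2F word (TTTCCCGC, TTTCGCGC, TTTGCCGC or TTTGGCGC, either strand) was in those of 2 members, Prps2 and Ppat (6.25%), and of 2.6% of genes. The word TTTCNNTTT, part of the interferon-stimulated response element, was in those of 4 members (12.5%), Pnp, Cmpk1, Rrm1 and Dctd, and of 12.1% of genes. A word in a window is a description of the sequence, and no binding was measured.

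Levels can be compared between genes only per length, as TPM, the deposited values scaled for transcript length and to a fixed total. In unstimulated naive B cells the order was led by Samhd1, which breaks deoxynucleotides down, at 501 ± 60.5 TPM (SD, n = 3), by Ctps2, a CTP synthetase, at 294 ± 47.4 TPM, and by Paics at 151 ± 4.27 TPM. In unstimulated naive T cells the same 3 genes led, with Samhd1 at 485 ± 41.04, Ctps2 at 346 ± 41.5 and Paics at 119 ± 3.48 TPM. In unstimulated naive B cells Ctps2 had fewer CPM than Adss, which is not among these 3. Its place by TPM therefore rests on the lengths of the transcripts its counts were assigned to, which were not examined. In EAE T cells with CtrlIg, Samhd1 was at 1471 ± 45.7, Paics at 382 ± 57.4 and Ctps2 at 153 ± 38.1 TPM. In CPM, Samhd1 was higher in unstimulated EAE T cells (4166, 4451 and 4094) than in those with CtrlIg (2861, 3400 and 3299). Adssl1, the adenylosuccinate synthetase of muscle, stayed below 1.3 CPM in every library and was too low to be tested in EAE T cells.

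**Figure D1:**
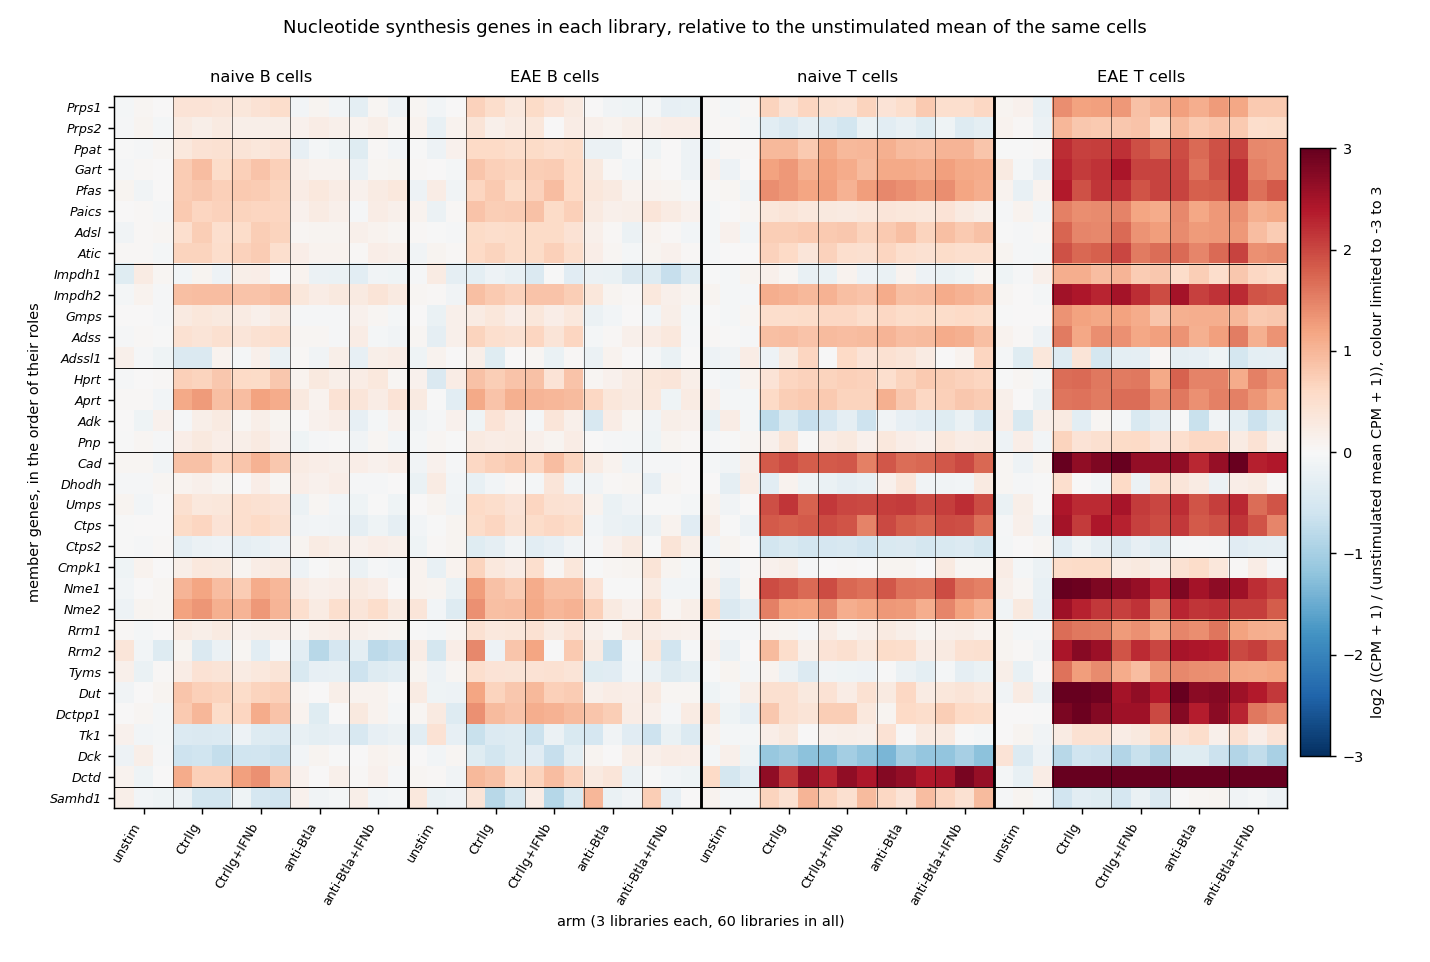
Level of each of the 34 members (rows, ordered by role) in each of the 60 libraries (columns, by set and arm) as log2 of (CPM + 1) over (mean unstimulated CPM of the same set + 1), with colours limited to 3 in either direction. The widest departures from the unstimulated mean are in the stimulated EAE T libraries, and in B cells the CtrlIg columns stand above the unstimulated and the anti-Btla columns for most rows.

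Activation raised most members in B cells. In naive B cells 27 of 34 members were called higher and 3 lower, and 22.7% of all genes tested were called higher and 17.5% lower. The EAE set had 27 higher and 2 lower, and 21% of all genes tested were called higher and 18.8% lower. The median log2 change over the members was 0.52 in naive and 0.69 in EAE B cells, and over all genes it was -0.02 and -0.05. Without scaling factors the median of all genes shifted to -0.13 and -0.18, and the split of all calls moved from 3779 higher and 2905 lower to 2837 and 4297 in naive B cells and from 3576 and 3190 to 2526 and 4949 in EAE B cells. The members then numbered 25 higher and 4 lower in naive and 26 higher and 4 lower in EAE B cells.

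The 6 enzymes from PRPP to IMP (Ppat, Gart, Pfas, Paics, Adsl and Atic) were called higher in 6 of 6 cases in both sets of B cells. In naive B cells their summed level was 455, 458 and 453 CPM unstimulated and 728, 731 and 695 CPM with CtrlIg. The groups did not overlap. The changes ran from 0.51 ± 0.07 for Ppat, the amidotransferase that opens the pathway, to 0.89 ± 0.06 for Pfas in naive B cells, and from 0.69 ± 0.07 for Adsl to 0.92 ± 0.07 for Paics in EAE B cells. Ppat and Paics share exon sequence on opposite strands, and their reads may be mixed, since the strand setting is not given in the sources used here. Both Prps genes, which make the PRPP from which this pathway starts, were called higher too, Prps1 by 0.52 ± 0.07 and Prps2 by 0.35 ± 0.06 in naive B cells.

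At the branch from IMP, the 2 IMP dehydrogenases of the GMP arm were called differently. Impdh2, the form induced in growing lymphocytes, was at 61.1, 68.5 and 62.4 CPM in unstimulated and 120.4, 123 and 123 CPM in CtrlIg naive B cells, without overlap (1.04 ± 0.06, edgeR adjusted p 3.9e-09). Impdh1 was at 5.49, 8.92 and 7.71 CPM unstimulated against 6.92, 7.83 and 6.56 CPM with CtrlIg, and its groups overlapped (0.05 ± 0.15, edgeR adjusted p 0.816). The changes in EAE B cells were 0.94 ± 0.06 for Impdh2 and -0.11 ± 0.14 for Impdh1. Gmps, which completes GMP, and Adss, which starts the AMP arm, were called higher in both sets, by 0.39 to 0.68. Adss was at 148, 157 and 152 CPM unstimulated and 208, 199 and 212 CPM with CtrlIg in naive B cells, without overlap, while its paralog Adssl1 stayed below 1.3 CPM. The 4 salvage genes Hprt, Aprt, Adk and Pnp were called higher as well. Aprt, which salvages adenine, had one of the largest changes: 13, 12.97 and 11.9 CPM unstimulated against 29.1, 32.2 and 24.3 with CtrlIg in naive B cells, which did not overlap (1.29 ± 0.12).

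Of the pyrimidine genes, Cad, the multifunctional enzyme that starts the pathway, rose by 0.92 ± 0.07 in naive and 0.85 ± 0.09 in EAE B cells. Umps, which makes UMP, and Ctps, which makes CTP, were called higher in both sets, by 0.50 to 0.70. Ctps2, the paralog of Ctps, was not called in either (-0.09 ± 0.05 and -0.12 ± 0.07). The level of Ctps was 30.1, 30.6 and 30.9 CPM unstimulated and 46.01, 48.3 and 41.1 with CtrlIg in naive B cells, and that of Ctps2 was 121, 119.8 and 126 CPM against 101, 108 and 110.2 CPM. Dhodh, the mitochondrial step of the pathway, had a change of 0.23 ± 0.08 in naive B cells, where it was called higher, and of 0.05 ± 0.10 in EAE B cells, and the difference between the sets was not called. Nme1 and Nme2 are nucleoside diphosphate kinases, which turn diphosphates into triphosphates, and Nme2 had the largest increase of members at 10 CPM or more in both sets. Nme2 went from 46.4, 54.9 and 53.9 to 121, 131 and 109 CPM in naive B cells (1.33 ± 0.10) and Nme1 from 29.9, 31.8 and 33.2 to 64.9, 72.9 and 61.5 CPM (1.17 ± 0.09). No CtrlIg library of either gene reached down to the unstimulated ones. The changes in EAE B cells were 1.24 ± 0.09 for Nme2 and 1.12 ± 0.08 for Nme1. Nme1 and Nme2 share exons on the same strand with Gm20390, a transcript that joins the 2 genes, so the split of reads among them is uncertain.

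Members of the deoxynucleotide group divided. Rrm1, the large subunit of ribonucleotide reductase, and Tyms, Dut, Dctpp1 and Dctd, which supply thymidylate and clear the pool of wrong nucleotides, were called higher in both sets. Dctd, dCMP deaminase, rose from 6.14, 5.01 and 5.62 to 13.2, 9.82 and 9.79 CPM in naive B cells (1.07 ± 0.14). Dut, dUTPase, rose from 21.5, 16.3 and 15.9 to 42.3, 29.2 and 31.9 CPM in EAE B cells (1.07 ± 0.09). Neither pair of groups overlapped. The salvage kinases fell. Dck, deoxycytidine kinase, went from 66.8, 84.9 and 72.4 to 48.2, 49.1 and 45.2 CPM in naive B cells (-0.54 ± 0.06) and by -0.30 in EAE B cells. Tk1, thymidine kinase, changed by -0.32 ± 0.08 and -0.33 ± 0.09, but shares exon sequence with Afmid on the opposite strand. Samhd1 was at 1017, 853 and 819 CPM unstimulated and 788, 610.4 and 615 CPM with CtrlIg in naive B cells, where it was called lower (-0.31 ± 0.05).

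Rrm2, the small subunit of ribonucleotide reductase that is made in dividing cells, was the member whose activation response differed between naive and EAE B cells. In EAE B cells it was at 9.34, 5.11 and 9.16 CPM unstimulated and 23.2, 7 and 14.9 CPM with CtrlIg. Replicate 2 was the lowest in each arm, so the groups overlapped, and the change within replicate numbers was 0.97 ± 0.13. In naive B cells the change was -0.05 ± 0.13. A test of the difference, added after these values were seen, gave 1.04 ± 0.19 (edgeR adjusted p 0.0298), and it was called in 8 of 17 alternative fits. Rrm2 was the sole member of 34 called in that comparison, in which 3 had an unadjusted p below 0.05, 0.0865% of all genes were called higher and 0.0% lower. The summed markers of dividing cells moved in the same libraries, at 135, 73.8 and 112 CPM unstimulated and 242, 123 and 214 CPM with CtrlIg in EAE B cells, and their part in the result was not tested.

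**Figure D2:**
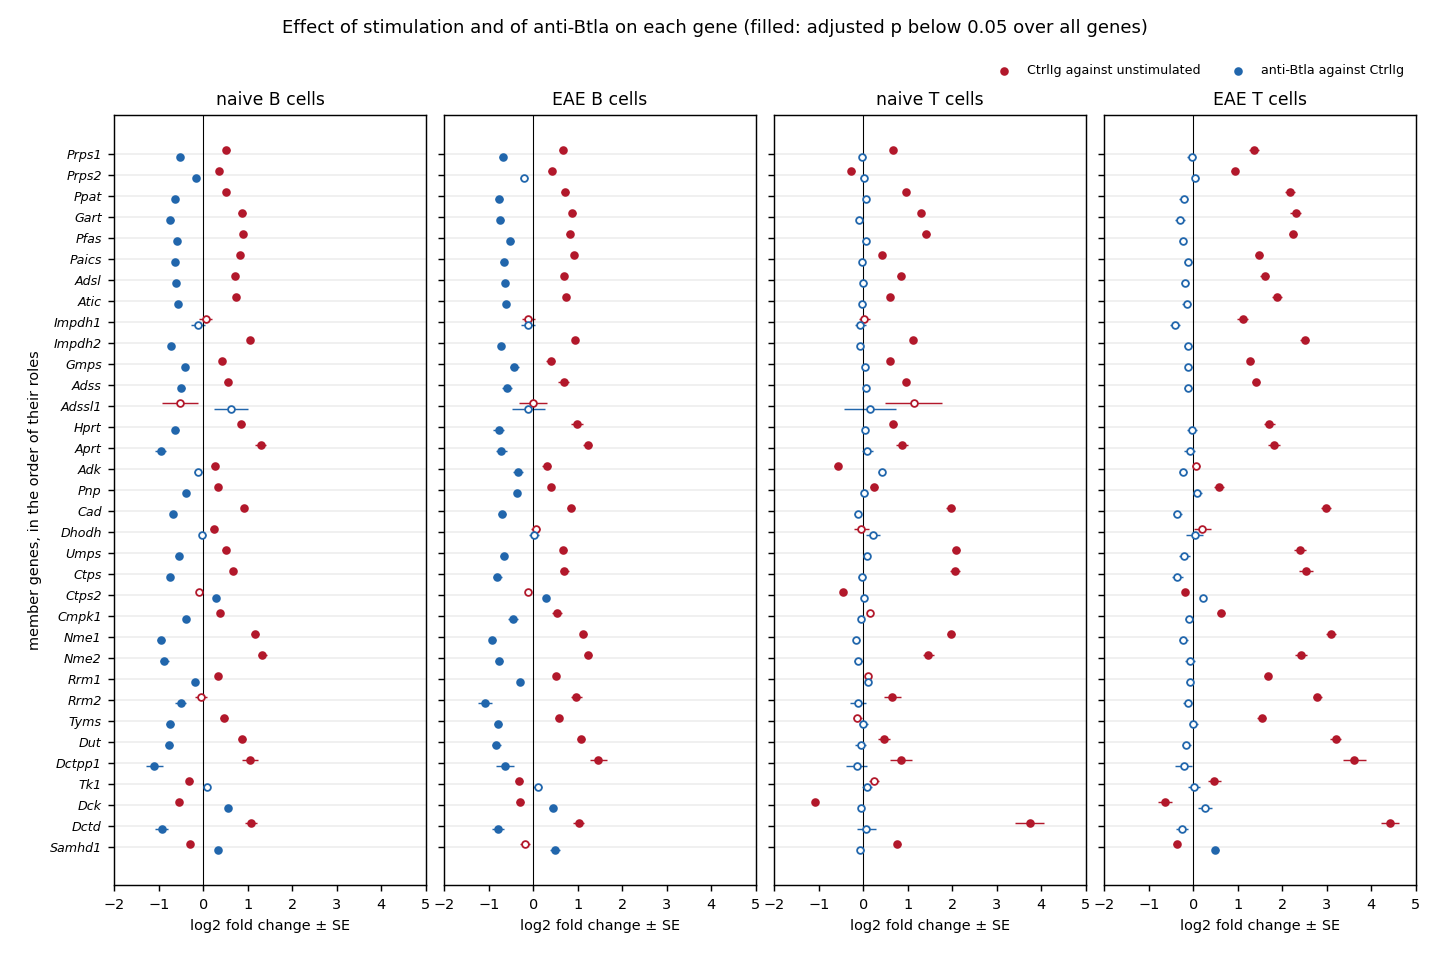
Log2 fold change ± SE of each member (3 libraries in each group) for activation, CtrlIg against unstimulated, in red and for the anti-Btla effect, anti-Btla against CtrlIg, in blue, in the 4 sets of cells, with filled points for calls at an adjusted p below 0.05. In both sets of B cells most red points lie right of 0 and most blue points left of it, and in T cells the blue points lie near 0 while the red reach 4.43 for Dctd in EAE T cells.

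Anti-Btla on the beads lowered most members in B cells relative to CtrlIg. In naive B cells 26 of 34 members were called lower and 3 higher, and 13.1% of all genes tested were called higher and 19.7% lower. The EAE set had 26 lower and 3 higher, and 13.6% of all genes tested were called higher and 16.5% lower. The median log2 change over the members was -0.57 and -0.63, and over all genes it was 0.01 and 0.04. Without scaling factors the medians of all genes became 0.10 and 0.12, the split of all calls moved from 2173 higher and 3283 lower to 3325 and 2471 in naive and from 2315 and 2809 to 3269 and 2140 in EAE B cells, and the members numbered 3 higher and 24 lower in each set. Leaving out replicate 1 from all 5 arms, an alternative chosen after the data were seen, left 23 members lower in naive and 20 in EAE B cells. Over all genes, that fit called 2591 of 16704 lower in naive B cells, against 3283 in the main fit. In EAE B cells it called 1724 of 17325 lower, against 2809.

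All 6 enzymes from PRPP to IMP were called lower in both sets. In naive B cells their sum was 728, 731 and 695 CPM with CtrlIg and 486, 506 and 488 CPM with anti-Btla, so no anti-Btla library reached a CtrlIg library. The changes lay between -0.58 (Atic) and -0.74 (Gart) in naive B cells and between -0.52 (Pfas) and -0.78 (Ppat) in EAE B cells. Impdh2 was at 80.9, 74.9 and 78.96 CPM with anti-Btla in naive B cells, below every CtrlIg library and above every unstimulated one (-0.73 ± 0.06, edgeR adjusted p 2.47e-07). Impdh1 was not called (-0.12 ± 0.16, and -0.12 ± 0.15 in EAE B cells). Prps1 fell by 0.53 and 0.69 in naive and EAE B cells. Prps2 had -0.16 ± 0.06 and -0.21 ± 0.09 and was called in naive B cells.

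Aprt had the largest decrease among members at 10 CPM or more in naive B cells, at 15.6, 13.7 and 17.5 CPM with anti-Btla (-0.96 ± 0.12, edgeR adjusted p 1.32e-05). Nme1 was at 37.9, 35.2 and 36.7 CPM (-0.95 ± 0.09) and Nme2 at 73.9, 61.3 and 73.3 CPM (-0.88 ± 0.10). Dctd was at 6.19, 5.64 and 6.28 CPM (-0.94 ± 0.14). For each of these 4 genes, every anti-Btla library lay below every CtrlIg library. Rrm2 had the largest decrease in EAE B cells, and was at 9.60, 4.49 and 7.47 CPM with anti-Btla, again with replicate 2 the lowest (-1.09 ± 0.15, edgeR adjusted p 9.35e-05). The markers of dividing cells summed to 155, 81.7 and 138 CPM in the same libraries, and their part was not tested. Nme1 followed with -0.92 ± 0.08 (75.3, 58.5 and 53.3 CPM with CtrlIg and 42.1, 31.1 and 30.8 with anti-Btla), then Dut with -0.83 ± 0.10 (42.3, 29.2 and 31.9 CPM against 20.02, 21.2 and 20.7 CPM). Ctps was at 44.2, 47.1 and 40.8 CPM with CtrlIg and 27.8, 26.2 and 25.2 with anti-Btla, a change of -0.81 ± 0.10. The groups of Nme1, Dut and Ctps did not overlap. Cad and Umps were called lower in both sets, by 0.55 to 0.71, and Dhodh in neither (-0.02 and 0.02).

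The 3 members called higher with anti-Btla were the same in naive and EAE B cells: Ctps2, Dck and Samhd1. Dck, which phosphorylates salvaged deoxynucleosides, went from 48.2, 49.1 and 45.2 CPM to 70.5, 79.6 and 73.9 CPM in naive B cells (0.56 ± 0.06, edgeR adjusted p 7.15e-06), and changed by 0.44 ± 0.08 in EAE B cells. Ctps2 was at 101, 108 and 110.2 CPM with CtrlIg and 129, 145 and 137 with anti-Btla, a change opposite in sign to that of its paralog Ctps (0.28 ± 0.05 against -0.75 ± 0.06). In both genes the groups were separate. Samhd1 went from 788, 610.4 and 615 CPM with CtrlIg to 985, 837 and 859.6 CPM with anti-Btla (0.33 ± 0.05), which did not overlap. In EAE B cells it went from 1175, 505 and 627 CPM to 1788, 788 and 842 CPM (0.48 ± 0.11), where replicate 1 stood above the others in both arms and the groups overlapped. Samhd1 is itself an interferon-induced gene, and replicate 1 had the highest sum of the 8 interferon-induced genes in each of these arms. In naive B cells that sum was 91.8, 28.15 and 24.97 CPM with CtrlIg and 63.9, 39.5 and 36.3 CPM with anti-Btla. In EAE B cells it was 81.95, 17.6 and 26.9 CPM and 126.9, 28.4 and 30.9 CPM. Its part in the Samhd1 values was not tested.

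**Figure D3:**
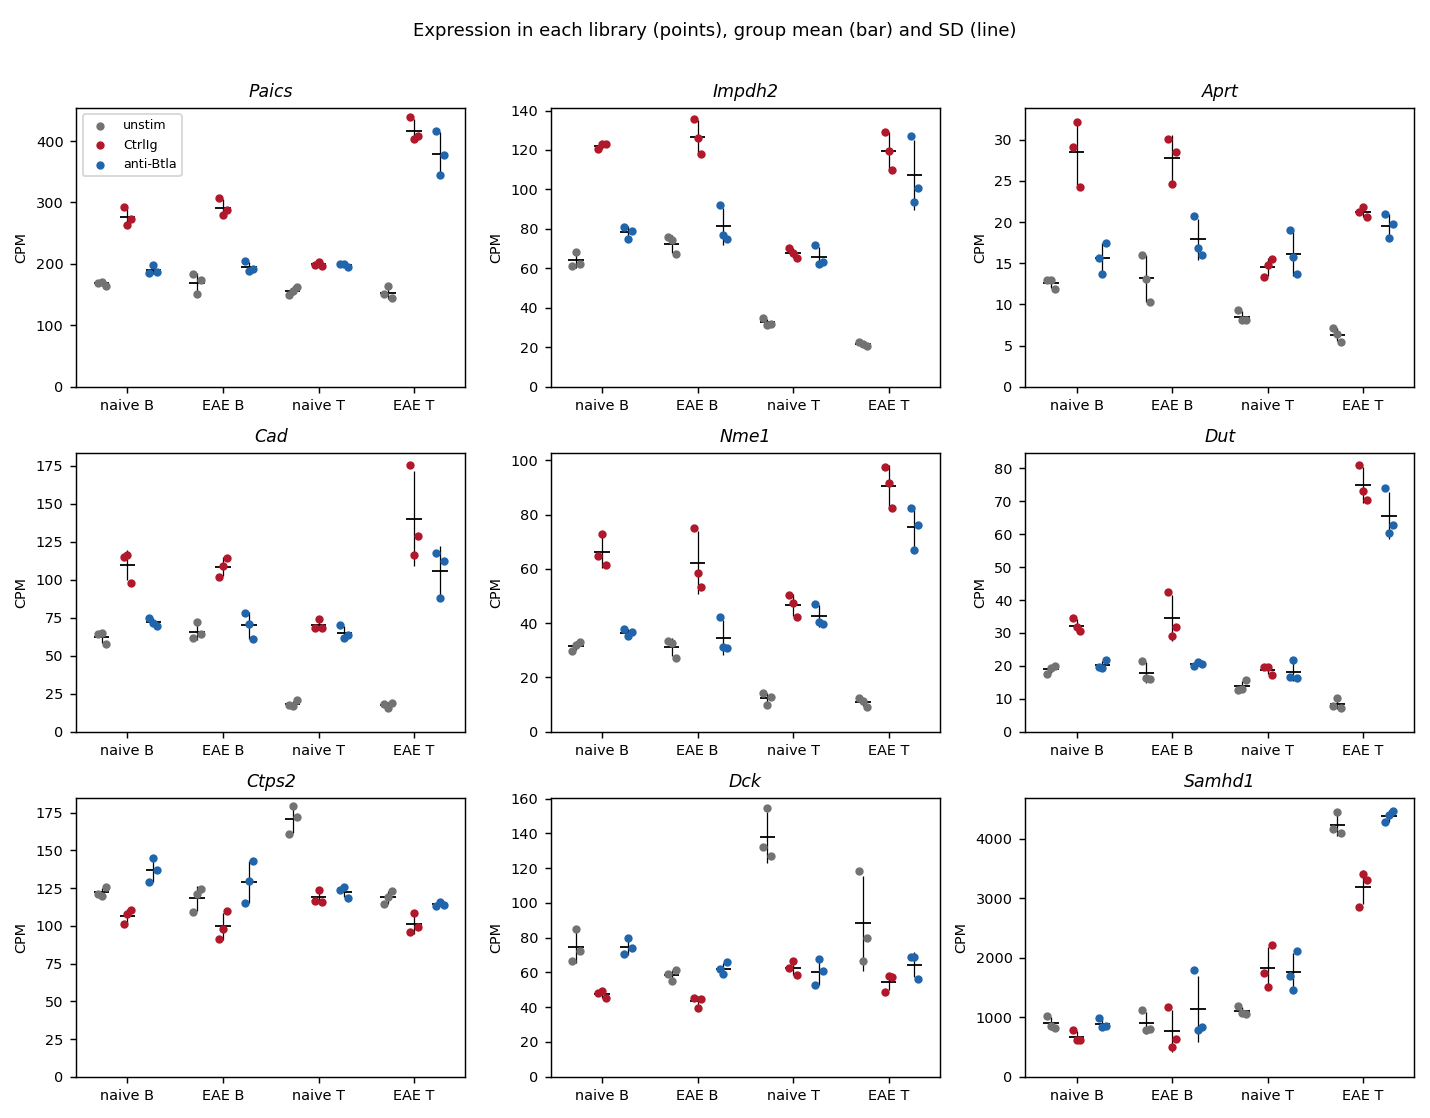
CPM of 9 members in unstimulated, CtrlIg and anti-Btla libraries of the 4 sets, with a point for each library, a bar for the mean of 3 and a line for the SD. Paics, Impdh2, Aprt, Cad, Nme1 and Dut stand high with CtrlIg and low with anti-Btla in both sets of B cells, while Ctps2, Dck and Samhd1 have their lower means with CtrlIg there. In T cells the CtrlIg and anti-Btla points lie close together for most of these genes.

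The response to anti-Btla did not detectably differ between naive and EAE B cells. In edgeR 0 of 34 members were called for the difference of the 2 effects, 1 had an unadjusted p below 0.05, and DESeq2 called 0. Of all genes 0.0% were called higher and 0.0% lower. In the presence of IFNb, anti-Btla lowered 25 members and raised 3 in naive B cells, where 11.9% of all genes tested were called higher and 17.5% lower. It lowered 24 and raised 3 in EAE B cells, where 13.6% of all genes tested were called higher and 17.4% lower. The members raised were again Ctps2, Dck and Samhd1 in both sets. Dctd had the largest decrease in naive B cells at -1.30 ± 0.14, from 14.5, 15.9 and 10.9 CPM to 5.78, 6.23 and 5.49 CPM, with separate groups. In EAE B cells Nme1 had the largest at 10 CPM or more, -1.03 ± 0.08, from 69.2, 59.6 and 59.5 to 37.2, 29.5 and 29.5 CPM, also without overlap.

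Set directly against unstimulated cells, in a comparison added after the other values were seen, anti-Btla-treated B cells had few members called. In naive B cells 4 members were called higher (Pfas by 0.28, Impdh2 by 0.31, Ctps2 by 0.18 and Nme2 by 0.45) and Rrm2 was called lower (-0.56 ± 0.13), and 3.65% of all genes tested were called higher and 4.06% lower. There 16 of 34 members had an unadjusted p below 0.05, and DESeq2 called 7 higher and 2 lower. In EAE B cells 6 were called higher (Pfas, Paics, Impdh2, Aprt, Nme2 and Dctpp1, by 0.22 to 0.84) and 0 lower in edgeR, with 14 members at an unadjusted p below 0.05 and 0 lower in DESeq2. There 3.24% of all genes tested were called higher and 2.49% lower. The median over the members was 0.11 in naive and 0.13 in EAE B cells. These calls were fragile: without replicate 1 in all 5 arms 1 was higher and 0 lower in naive B cells, and 0 were called in EAE B cells. Calls over all genes fell in that fit too. They went from 607 higher and 675 lower to 268 and 388 in naive B cells. In EAE B cells they went from 551 and 424 to 83 and 121. A p that misses the threshold does not show that the levels are the same.

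Activation also raised most members in T cells, and by more in the EAE set. In naive T cells 23 of 34 were called higher and 4 lower, and 27.1% of all genes tested were called higher and 23% lower. The EAE set had 28 of 33 tested members called higher and 3 lower, and 31.7% of all genes tested were called higher and 31.3% lower. The median log2 change over the members was 0.66 in naive and 1.67 in EAE T cells, and over all genes it was -0.02 and -0.07. Transcripts of other cell types also changed with stimulation in these libraries. CD8 transcripts summed to 925.7 to 1096 CPM in unstimulated and 597 to 752 CPM in CtrlIg naive T cells. NK markers (3 genes) summed to 146 to 175 CPM in unstimulated and 57.1 to 82.8 CPM in stimulated naive T cells. In EAE T cells the NK sums were 26 to 50.6 CPM and 5.08 to 8.87 CPM. The NK sum in naive T cells was mostly Klrd1 (52.4 to 170.8 CPM over all arms). Klrb1c and Ncr1 stayed there at 0.682 to 4.80 and 1.44 to 3.63 CPM. B cell markers in EAE T cells summed to 181, 43.99 and 15.9 CPM unstimulated and to 45.2, 14.8 and 9.68 CPM with CtrlIg, and myeloid markers (7 genes) to 128 to 333 CPM in unstimulated EAE T cells and 26.7 to 97.2 CPM in stimulated ones. Their part in the changes was not tested.

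Purine synthesis to IMP was called higher for 6 of 6 genes in both sets of T cells. Its summed level was 323, 335 and 338 CPM in unstimulated and 548, 548 and 504 CPM in CtrlIg naive T cells, and it went from 319, 316 and 301 CPM to 1140, 994 and 1028 CPM in EAE T cells. The unstimulated levels of the 2 sets were close, at 301 to 338 CPM, and the CtrlIg levels were higher in every EAE library than in any naive one. In EAE T cells the changes ran from 1.48 ± 0.09 for Paics to 2.30 ± 0.13 for Gart, which catalyses 3 of the steps. Impdh2 rose from 22.6, 21.8 and 20.6 to 129, 119.7 and 109.9 CPM in EAE T cells (2.50 ± 0.10) and by 1.12 ± 0.06 in naive T cells. Impdh1 was called higher in EAE T cells, from 10.9, 11.8 and 13.6 to 26.8, 26.98 and 23.9 CPM (1.11 ± 0.13), and not in naive T cells (0.02 ± 0.12). The test of that difference gave 1.14 ± 0.18 (edgeR adjusted p 1.65e-05).

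The pyrimidine genes had some of the largest changes in naive T cells. Umps rose from 15.4, 13.3 and 14.4 to 57.3, 67.2 and 51.6 CPM (2.08 ± 0.09, edgeR adjusted p 1.05e-12), Ctps from 8.44, 7.27 and 6.50 to 28.9, 28.1 and 29.3 CPM (2.06 ± 0.11) and Cad by 1.96 ± 0.10. None of the Umps or Ctps libraries overlapped between the arms. The changes in EAE T cells were 2.40 ± 0.14, 2.53 ± 0.15 and 2.99 ± 0.11. Ctps2 fell while Ctps rose, from 161, 179.6 and 172 to 117, 124 and 116 CPM in naive T cells (-0.46 ± 0.04) and by -0.19 ± 0.07 in EAE T cells. Dhodh was called in neither set (-0.05 ± 0.17 and 0.20 ± 0.19). Nme1 rose from 14.2, 10.01 and 12.8 to 50.4, 47.4 and 42.2 CPM in naive T cells (1.97 ± 0.09) and from 12.3, 11.5 and 9.29 to 97.6, 91.7 and 82.5 CPM in EAE T cells (3.10 ± 0.11). Every CtrlIg library lay above every unstimulated one.

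Of the 8 genes of deoxynucleotide supply, 4 were called higher on activation (Rrm2, Dut, Dctpp1 and Dctd) and 1, Dck, lower in naive T cells, and 7 higher and again Dck lower in EAE T cells. Over all genes tested, 27.1% were called higher and 23% lower in naive, and 31.7% and 31.3% in EAE T cells. The median log2 change over the 8 genes was 0.36 in naive and 2.23 in EAE T cells. Their summed level was 252, 267 and 240.3 CPM in unstimulated and 209, 201 and 181 CPM in CtrlIg naive T cells, and it went from 228, 169 and 181 CPM to 479.5, 458 and 449 CPM in EAE T cells. Dck, the member called lower, made up a large part of the unstimulated sum in naive T cells, at 132, 154 and 127 CPM against 62.4, 66.6 and 58.3 CPM with CtrlIg, so the lower sum there does not describe the other members. In EAE T cells Dut rose from 7.74, 10.2 and 7.34 to 80.9, 73.1 and 70.4 CPM (3.20 ± 0.12), Dctpp1, a dCTP pyrophosphatase, from 1.20, 1.21 and 1.18 to 14.7, 15.9 and 13.7 CPM (3.62 ± 0.26), and Dctd from 1.20, 0.967 and 1.67 to 39.4, 27.2 and 27.5 CPM (4.43 ± 0.20, edgeR adjusted p 5.43e-11). No library of one arm reached the other for these 3 genes. Rrm1, Rrm2 and Tyms rose by 1.67, 2.79 and 1.54. In naive T cells Dctd rose from 1.95, 0.342 and 0.557 to 11.4, 7.51 and 11.2 CPM (3.74 ± 0.33), Dut changed by 0.47 ± 0.13, and Rrm1 (0.11 ± 0.06) and Tyms (-0.14 ± 0.10) were not called. The markers of dividing cells summed to 134, 204 and 140.2 CPM in unstimulated and 446, 494 and 534 CPM in CtrlIg EAE T cells, and to 50.2 to 54.7 and 86.1 to 101 CPM in naive T cells. Their part in these changes was not tested.

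**Figure D4:**
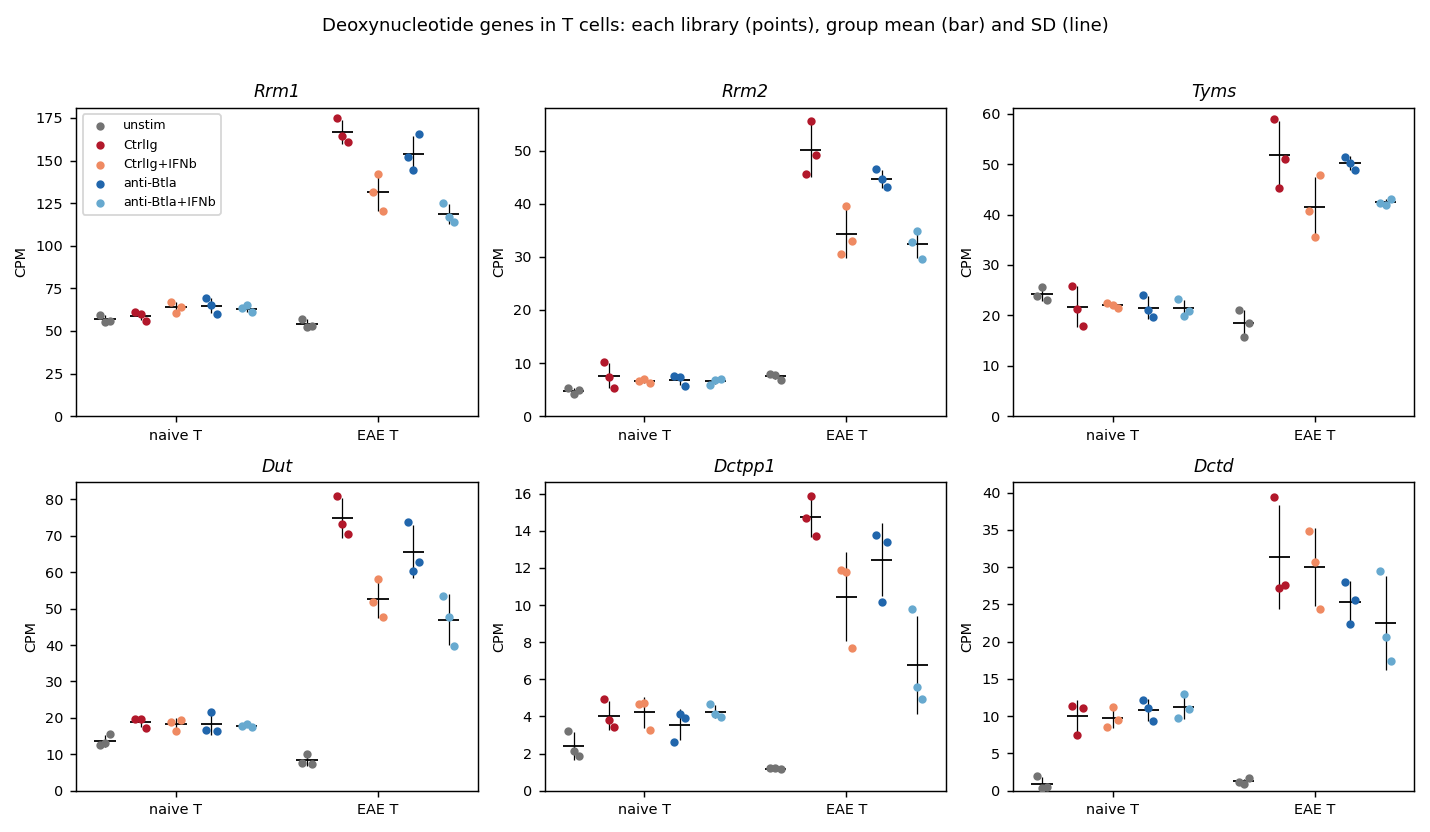
CPM of Rrm1, Rrm2, Tyms, Dut, Dctpp1 and Dctd in the 5 arms of naive and EAE T cells, with a point for each library, a bar for the mean of 3 and a line for the SD. In EAE T cells all stimulated arms lie above the unstimulated arm, and the CtrlIg points of Dut (70.4 to 80.9 CPM) lie above those with CtrlIg and IFNb (47.7 to 58.1 CPM).

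Among the members that fell on activation, Dck went from 132, 154 and 127 to 62.4, 66.6 and 58.3 CPM in naive T cells (-1.08 ± 0.06) and by -0.63 ± 0.16 in EAE T cells. Adk, adenosine kinase, went from 88.5, 121 and 99.5 to 60.02, 74.4 and 62.95 CPM in naive T cells (-0.58 ± 0.08), whereas in EAE T cells its change was 0.07 ± 0.09 and was not called. The groups of both genes were separate in naive T cells. Prps2 was called lower in naive T cells, from 92.5, 92.5 and 87.5 to 72.5, 67.6 and 75.2 CPM (-0.27 ± 0.08), and higher in EAE T cells, from 69.8, 66.2 and 57.5 to 129.9, 114 and 113 CPM (0.93 ± 0.08). Samhd1 did the reverse. It rose from 1184, 1067 and 1059 to 1750, 1508 and 2220 CPM in naive T cells (0.76 ± 0.08) and fell from 4166, 4451 and 4094 to 2861, 3400 and 3299 CPM in EAE T cells (-0.37 ± 0.08). The sum of the 8 interferon-induced genes moved the same ways, from 149.7, 95.01 and 94.2 CPM to 266, 153 and 402 CPM in naive T cells and from 596, 1088 and 678 CPM to 84.7, 166 and 140.2 CPM in EAE T cells, and its part in the Samhd1 values was not tested.

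The differences between activation responses were tested directly. Between EAE and naive T cells, a comparison added after the values were seen, 28 members had a more positive change in EAE T cells and 1, Samhd1, a more negative one (-1.06 ± 0.12), and 20.8% of all genes tested were called higher and 17% lower. The largest at 10 CPM or more were those of Dctpp1 (2.85 ± 0.37), Dut (2.80 ± 0.19), Rrm2 (2.23 ± 0.22) and Tyms (1.74 ± 0.14). Umps was not called (0.38 ± 0.17). Naive and EAE T cells also differed in CD8 and myeloid transcripts, so disease state and cell composition cannot be told apart in this comparison. Between T and B cells of naive mice, 13 members had a more positive and 6 a more negative change in T cells, and 14.7% of all genes tested were called higher and 9.02% lower. Dctd (2.72 ± 0.39), Umps (1.63 ± 0.12) and Ctps (1.44 ± 0.12) led the first group, and Adk (-0.79 ± 0.11) and Prps2 (-0.58 ± 0.11) the second. Between T and B cells of EAE mice, 26 had a more positive change in T cells and 0 a more negative one in edgeR, with 26 members at an unadjusted p below 0.05 in all. There 19.7% of all genes tested were called higher and 18.2% lower. Dctd (3.41 ± 0.24), Dctpp1 (2.16 ± 0.35), Cad (2.14 ± 0.15) and Dut (2.13 ± 0.16) had the largest. B and T cells received different receptor antibodies, so cell type and stimulus cannot be told apart in these differences.

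Anti-Btla changed few members past the threshold in T cells. In naive T cells edgeR called 0 of 34, 1 had an unadjusted p below 0.05, and DESeq2 called 1 higher and 0 lower. Of all genes 0.0% were called higher and 0.0% lower. The member with the smallest p was Adk, at 60.02, 74.4 and 62.95 CPM with CtrlIg and 95.6, 86.6 and 83.05 with anti-Btla, which did not overlap (0.41 ± 0.08, edgeR adjusted p 0.171). In the EAE set 1 of 33 members was called higher and 0 lower, and 9 had an unadjusted p below 0.05, as did 1358 of all 14572 genes tested. The median over the members was -0.12, and over all genes it was 0.00. DESeq2 called 1 higher and 0 lower. Of all genes 0.048% were called higher and 0.0206% lower. The call was Samhd1, at 2861, 3400 and 3299 CPM with CtrlIg and 4275, 4406 and 4466 CPM with anti-Btla (0.49 ± 0.08, edgeR adjusted p 0.0379). Its groups did not overlap, but it was called in 4 of 12 alternative fits and in 0 of those that left out a library. The interferon-induced sum was 84.7, 166 and 140.2 CPM with CtrlIg and 149.6, 266 and 109 CPM with anti-Btla. These groups overlapped, replicate 3 was lower with anti-Btla, and the part of this sum was not tested. Impdh1 was at 18.4, 20.9 and 17.9 CPM with anti-Btla, below every CtrlIg library, and was not called (-0.41 ± 0.12, edgeR adjusted p 0.273).

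With IFNb present, edgeR called 0 members for anti-Btla in naive T cells (1 at an unadjusted p below 0.05, DESeq2 0) and 0 in EAE T cells (9 at an unadjusted p below 0.05, against 1418 of 14572 genes, DESeq2 0). The median over the members in EAE T cells was -0.13. Of all genes 0.0% were called higher and 0.0132% lower in naive T cells, and 0.0% higher and 0.0% lower in EAE T cells. Set against unstimulated cells, anti-Btla-treated T cells had 25 members higher and 3 lower in the naive set, where 27.5% of all genes tested were called higher and 22.1% lower, and 28 higher and 1 lower in the EAE set, where 32.1% of all genes tested were called higher and 30.7% lower. Impdh2, for example, was at 127, 93.4 and 101 CPM with anti-Btla in EAE T cells, which overlapped the CtrlIg libraries and lay above every unstimulated one (2.37 ± 0.10).

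The difference between the anti-Btla effects in B and T cells was tested in fits of 30 libraries. In naive mice 25 members had a more negative and 3 a more positive effect in B cells, and 7.25% of all genes tested were called higher and 9.6% lower. Aprt (-1.0 ± 0.17), Dctd (-0.97 ± 0.29), Dctpp1 (-0.91 ± 0.30) and Nme1 (-0.75 ± 0.13) had the most negative differences among members that met the 10 CPM limit. Dctpp1 lay near or below 10 CPM in these naive cells (edgeR adjusted p 0.038). It met the limit because this was applied to the highest mean over all 20 groups. The positive differences were those of Dck (0.66 ± 0.09), Samhd1 (0.45 ± 0.11) and Ctps2 (0.29 ± 0.06). In EAE mice 17 had a more negative effect in B cells and 0 a more positive one in edgeR, with 25 members at an unadjusted p below 0.05 in all, and 2.14% of all genes tested were called higher and 7.52% lower. Rrm2 (-1.02 ± 0.18), Tyms (-0.84 ± 0.13), Hprt (-0.79 ± 0.20) and Nme2 (-0.75 ± 0.16) led there. This count depended on the fit, with 1 member called without the replicate block and 9 without scaling factors.

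IFNb added to CtrlIg moved 0 members by the edgeR test in any of the 4 sets. The members at an unadjusted p below 0.05 numbered 1 and 0 in naive and EAE B cells, and 1 and 9 in naive and EAE T cells. In EAE T cells 1358 of all 14572 genes did so, and the median over the members was -0.08. DESeq2 called 0 in the first 3 sets and 2 lower in EAE T cells. Of all genes, those called higher and lower were 0.0% and 0.0% for naive B cells, 0.0% and 0.0% for B cells of EAE mice, 0.0% and 0.0% for naive T cells, and 0.158% and 0.0% for T cells of EAE mice. The interferon-induced genes themselves overlapped between the arms, going from 91.8, 28.1 and 24.97 CPM with CtrlIg to 134, 39.5 and 24.4 CPM with IFNb added in naive B cells and from 84.7, 166 and 140.2 CPM to 98.1, 273 and 221 CPM in EAE T cells. Their sum went from 81.95, 17.6 and 26.9 CPM to 66.8, 20.03 and 25.9 CPM in EAE B cells and from 266, 153 and 402 CPM to 244, 162 and 326 CPM in naive T cells. In EAE T cells Rrm2 was at 45.6, 55.5 and 49.2 CPM with CtrlIg and 30.6, 39.5 and 33.1 CPM with IFNb (-0.48 ± 0.10, edgeR adjusted p 0.0884). Dut was at 80.9, 73.1 and 70.4 CPM against 51.9, 58.1 and 47.7 CPM (-0.44 ± 0.10, edgeR adjusted p 0.159). The groups of both genes were separate, and neither passed the threshold.

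Unstimulated cells of EAE and naive mice were compared without a block, since the animals differ. In B cells edgeR called 0 members, 4 had an unadjusted p below 0.05, DESeq2 called 0, and 0.0246% of all genes tested were called higher and 0.0246% lower. In T cells 4 members were higher and 7 lower in EAE, and 18.6% of all genes tested were called higher and 17% lower. Samhd1 was at 1184, 1067 and 1059 CPM in naive and 4166, 4451 and 4094 CPM in EAE T cells (2.02 ± 0.07, edgeR adjusted p 5.93e-07). Gmps, Adss and Rrm2 were the other members called higher, by 0.21, 0.26 and 0.74. Adk was at 61.1, 38.3 and 58.9 CPM in EAE T cells, below the naive libraries (-0.89 ± 0.17). Dut (-0.66), Dck (-0.58) and Impdh2 (-0.52) had the next largest decreases, followed by Ppat, Ctps2 and Prps2. The unstimulated naive and EAE T cells also differed in CD8, myeloid and interferon-induced transcripts and in markers of dividing cells (50.2 to 54.7 against 134 to 204 CPM). The NK marker sum differed too (146 to 175 against 26 to 50.6 CPM), and in naive T cells it was mostly Klrd1. Over all arms Klrb1c and Ncr1 reached at most 4.80 and 3.63 CPM in naive and 15.1 and 7.72 CPM in EAE T cells. The part of these transcripts in the differences was not tested.

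The 4 other lists of nucleotide genes, which share no gene with the 34, were counted in the same fits. The 15 genes of one-carbon supply feed carbon units from serine and folate into purine and thymidylate synthesis. On activation 8 of 14 tested were called higher and 0 lower in naive B cells, and 9 and 1 of 14 in those of EAE mice. In T cells the counts were 9 and 0 of 14 in the naive and 11 and 2 of 15 in the EAE set. Psat1, a serine synthesis enzyme, rose by 1.19 ± 0.05 in naive B cells and by 4.13 ± 0.08 in naive T cells, where mitochondrial Shmt2 (3.15 ± 0.06) and Mthfd2 (3.18 ± 0.11) rose with it. With anti-Btla 0 of 14 were called higher and 9 lower in naive B and 0 higher and 11 lower in EAE B cells by edgeR, led by Psat1 (-1.04 ± 0.05 and -1.04 ± 0.08).

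The remaining lists had calls in both directions. Of other nucleotide kinases and salvage genes, 10 of 23 were called higher and 5 lower on activation in naive B cells, 11 and 6 of 23 in those of EAE mice, 11 and 5 of 23 in naive T cells and 14 and 5 of 22 in those of EAE mice. With anti-Btla 2 were higher and 8 lower in naive B and 3 and 9 in EAE B cells. Of the genes of catabolism, 4 of 17 were higher and 5 lower on activation in naive B cells, 3 and 6 of 17 in those of EAE mice, 4 and 4 of 15 in naive T cells and 6 and 6 of 17 in those of EAE mice. With anti-Btla 5 were higher and 3 lower in naive B and 3 and 2 in EAE B cells. For all 4 lists the shares of all genes called higher and lower apply. On activation these were 22.7% and 17.5% in naive B and 21% and 18.8% in EAE B cells. In T cells they were 27.1% and 23% (naive) and 31.7% and 31.3% (EAE). With anti-Btla they were 13.1% and 19.7% in naive B and 13.6% and 16.5% in EAE B cells. The 6 and 6 of 17 of catabolism in EAE T cells are near these shares. So are the 4 of 17 and the 3 of 17 in naive B cells. The 5 of 17 lower on activation and 5 of 17 higher with anti-Btla there lie above them, on few genes and untested. In B cells Ada, adenosine deaminase, fell on activation (-0.48 ± 0.08 and -0.70 ± 0.11) and was higher with anti-Btla (0.67 ± 0.08 and 0.81 ± 0.12). Of the nucleoside transporters, 2 of 6 were higher and 2 lower on activation in each set of B cells, 3 and 1 of 5 in naive T and 2 and 1 of 4 in EAE T cells. Slc29a1, an equilibrative transporter, rose by 3.00 ± 0.14 and 2.62 ± 0.13 in T cells, while Slc28a2, a concentrative one, fell by -1.50 ± 0.06 and -1.71 ± 0.11. With anti-Btla 1 of 6, Slc28a2, was higher and 2 lower in both sets of B cells. In T cells edgeR called 0 genes of the 4 lists for anti-Btla (naive T 0, 1, 2 and 0 and EAE T 5, 2, 2 and 2 at an unadjusted p below 0.05, in the order of the lists above).

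Of factors known to act on these genes, Myc was at 188, 186 and 178 CPM in unstimulated, 293, 288 and 241 in CtrlIg and 167, 144 and 143 in anti-Btla naive B cells, with changes of 0.67 ± 0.07 on activation and -0.95 ± 0.07 with anti-Btla. The anti-Btla libraries lay below both other arms. In naive T cells Myc was at 37.5, 34.98 and 40.5, 419, 487 and 454 and 423, 447 and 420.5 CPM, and rose on activation by 3.64 ± 0.06. E2f3, which drives genes of DNA synthesis, was at 7.61, 7.25 and 7.41 CPM in unstimulated and 34.1, 29.9 and 27.9 CPM in CtrlIg EAE T cells, without overlap. The same list held E2f1, E2f2, Atf4 and Mki67, whose values are not given here, and neither are those of Myc in the EAE sets. The values shown thus do not describe the whole list. Whether any of these factors acted on the members was not tested.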

How the data were processed

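The authors quantified transcripts with Salmon on GRCm38 (R v4.0.0 and DESeq2 for their tests; the notes give no version of Salmon or DESeq2). They deposited 67 tables with estimated counts (NumReads) and TPM per transcript. Neither library kit nor strand setting is given in the sources used here. Counts were summed to genes with GENCODE M21 and rounded, and 7 T cell libraries with 2 runs had the runs summed, since runs differed by 1.53 to 1.651 (chi-square per degree of freedom) and replicates by 4.392 to 55.21. Transcripts with no gene in that annotation (569 in B, 922 in T cell tables) held 0.158 to 0.684% of counts and were left out. The deposited TPM, scaled to a fixed total within each library, entered no test.

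Each set of 15 libraries was fitted with edgeR 4.0.16 (quasi-likelihood F-test, R 4.3.3, TMM, filterByExpr at a minimum count of 10), with the replicate number as a block as in the study's general methods. EAE against naive used 6 libraries without a block. Differences between effects used 30 libraries. Standard errors came from the log2 change and F. Calls needed a Benjamini-Hochberg adjusted p below 0.05 over all genes. There were 23 planned comparisons and 6 added after values were seen. The fits were tested on simulated data with 200 changed genes. Alternatives were DESeq2 1.42.0, its size factors in edgeR, no filter, no block, first runs, leaving out each library and, added later, library size alone and B cells without replicate 1.

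The members and lists were chosen with earlier results of these data known. Values per library were printed for up to 4 called members with the largest change in each direction at 10 CPM or more, and for the paralog pairs Impdh1 and Impdh2, Prps1 and Prps2, Ctps and Ctps2, Adss and Adssl1, and Nme1 and Nme2. For differences between effects, the 10 CPM limit was applied to the highest mean over all 20 groups, not only those compared. Of the other lists, up to 4 with the smallest p could be named. The levels of Rrm2, Dut and Adk in comparisons where they were not called were added after their values were seen. Exons are shared on the same strand by Pfas with Mir3062 and Pnp with Gm49342, and on the opposite strand by Gart with Gm15964, Impdh2 with Ndufaf3, Pnp with Gm38316 and Umps with Gm15829. Promoter windows are from RefSeq. Reads are not independent molecules, and the tests rest on the spread between libraries.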

Additional observations from a re-analysis of the deposited data

Results flagged for a closer look

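Each value here is a difference between the effects of a contrast in 2 sets of cells, on the log2 scale, that passed the edgeR test of the difference itself at an adjusted p below 0.05. For activation in EAE minus naive B cells this was Rrm2 (1.04 ± 0.19, adjusted p 0.0298), which rested on 3 libraries a group. For activation in EAE minus naive T cells Dctpp1 (2.85), Dut (2.80), Rrm2 (2.23) and Tyms (1.74) were more positive, and Samhd1 (-1.06) was more negative. Disease state and cell composition cannot be told apart in these T cell differences.

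For activation in T minus B cells of EAE mice, Dctd (3.41), Dctpp1 (2.16), Cad (2.14) and Dut (2.13) were more positive in T cells. In naive mice Dctd (2.72), Umps (1.63), Ctps (1.44) and Samhd1 (1.12) were more positive, and Adk (-0.79), Prps2 (-0.58), Tyms (-0.55) and Dck (-0.49) were more negative.

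For anti-Btla in B minus T cells of EAE mice, Rrm2 (-1.02), Tyms (-0.84), Hprt (-0.79) and Nme2 (-0.75) were more negative in B cells. In naive mice Aprt (-1.0), Dctd (-0.97), Dctpp1 (-0.91) and Nme1 (-0.75) were more negative, and Dck (0.66), Samhd1 (0.45) and Ctps2 (0.29) were more positive. Of these, Dctpp1 lay near or below 10 CPM in the naive cells compared. Cell type, receptor antibody and the depth of the libraries go together in the B against T differences and cannot be told apart.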

How the results depend on the processing

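No called change of a member turned its sign under any alternative. Of called values, DESeq2 kept 421 and lost 9, its size factors kept 423 and lost 7, no filter kept 413 and lost 17, library size alone kept 404 and lost 26, first runs kept 242 and lost 4, and leaving out a library kept 3037 and lost 263 in all. Without the replicate block 362 were kept and 57 were not called. The block had a median correlation of deviations between libraries of the same number of 0.4882 and 0.5459 in naive and EAE B cells and 0.2806 and 0.345 in naive and EAE T cells, over 0.1 in 25, 28, 30 and 29 of 30 pairs, so every pair passed in naive T cells and not in the other sets, and 15, 14, 15 and 15 of 15 libraries were closest to their own number. These counts moved by over 1.5 times, and the cause was not tested. Without the block, members lower on activation in EAE B cells went from 2 to 0, higher with anti-Btla in EAE T cells from 1 to 0, lower in B minus T cells of EAE mice from 17 to 1, lower with anti-Btla against unstimulated from 1 to 0 in naive B and from 1 to 0 in EAE T cells, higher in EAE B cells from 6 to 0, and higher for activation in EAE minus naive B cells from 1 to 0. With library size alone they were 4 lower on activation in EAE B, 1 lower with IFNb in EAE T, 2 higher in EAE than in naive T, 9 lower in B minus T cells of EAE mice, 2 higher in EAE B and 2 lower in EAE T cells against unstimulated. With no filter they were 1 higher with anti-Btla in naive T, 2 lower with IFNb in EAE T, 2 lower with anti-Btla and IFNb in EAE T, 2 higher in EAE than in naive T, and against unstimulated 2 lower in naive B and 3 higher in EAE B cells. DESeq2 called 1 higher with anti-Btla in naive T, 2 lower with IFNb in EAE T, and 7 higher and 2 lower against unstimulated in naive B cells. With DESeq2's size factors 0 were higher with anti-Btla and 0 lower against unstimulated in EAE T cells. Without replicate 1 in all 5 arms, against unstimulated 1 was higher and 0 lower in naive B and 0 were higher in EAE B cells. Leaving out 1 library gave 0 to 3 lower on activation in EAE B (0 without CtrlIg replicate 2, 1 without CtrlIg 3 or unstimulated 2 or 3), 1 to 3 in EAE T (1 without CtrlIg replicate 1), 0 to 0 higher with anti-Btla in EAE T, 1 to 3 higher in EAE than in naive T (1 without naive replicate 2 or 3, 2 without naive 1 or EAE 1 or 2), 0 to 1 lower for activation in T minus B of EAE mice (1 without T cell CtrlIg or unstimulated replicate 2), 9 to 18 lower for anti-Btla in B minus T of EAE mice (9 without T cell anti-Btla replicate 3 or CtrlIg 1, 10 without B cell anti-Btla 3, 11 without B cell anti-Btla 2 or CtrlIg 1), against unstimulated 2 to 4 higher in naive B (2 without anti-Btla 1 or 3 or unstimulated 1) and 0 to 1 lower (0 without anti-Btla 1 or 2 or unstimulated 1), 0 to 5 higher in EAE B (0 without anti-Btla 2, 1 without anti-Btla 1, 2 without unstimulated 1 or 3, 3 without anti-Btla 3) and 0 to 1 lower in EAE T cells (0 without any anti-Btla library or unstimulated 1 or 3), 0 to 1 higher for activation in EAE minus naive B (0 without any naive CtrlIg library, naive unstimulated 1 or 2, EAE CtrlIg 1 or 3 or EAE unstimulated 1), and 1 to 2 lower in EAE minus naive T cells (2 without EAE CtrlIg 2). Depth limits Adssl1 and, outside stimulated EAE T cells, Dctpp1, which lay near or below 10 CPM, Dctd in unstimulated T cells (0.342 to 1.95 CPM), where its folds rest on few counts, and Impdh1 in B cells (5.49 to 8.92 CPM in unstimulated naive ones).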
